A study of Mus musculus with 2 samples.

Results

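The circadian clock genes *Per1*, *Per2*, *Per3*, *Dbp*, *Tef*, *Nr1d1*, *Nr1d2*, *Arntl*, *Ciart*, and *Bhlhe41* were followed in scRNA-Seq data of whole mouse retina, in WT and in a mutant of the mtDNA-encoded complex I gene ND6. These 10 genes were taken by symbol from a list, out of 32285 genes counted, by a rule that uses no level, although earlier results of these data were known when the list was made. All 10 of 10 genes had at least 20 unique molecular identifiers (UMIs, which count captured RNA molecules) over both libraries, as did 15888 of all genes. The study examined how an ND6 mutation linked to Leber hereditary optic neuropathy (LHON) changes the retina. Its WT group was male C57BL/6J mice aged 7 months. Its mutant group, labelled ND6, was male mice of the same strain and age that carry the missense mutation in their mtDNA. The mutation is homoplasmic in the whole body, so no cell type of these mice has WT mtDNA, and the line is kept by mating mutant females with WT males. Values come from 1 library of each group (replicate 1), and further libraries were not analysed here. With 1 library per group the spread between mice is not known. So no test was made, and all intervals are 95% intervals that cover counting error only. The hour of dissection is not given in the sources used here, and genotype and hour of dissection cannot be told apart in these data.

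The molecular clock is a feedback loop that runs in nearly every cell. ARNTL (also called BMAL1) and CLOCK bind E-boxes and activate the *Per*, *Cry*, *Nr1d1*, *Nr1d2*, *Ciart*, *Bhlhe41*, *Dbp*, and *Tef* genes, and the PER and CRY proteins then return to repress ARNTL and CLOCK. NR1D1 and NR1D2 (REV-ERBα and REV-ERBβ) repress *Arntl* through elements called RREs, and DBP, TEF, and HLF, bZIP factors of the PAR group, activate genes with D-boxes. *Arntl* and *Dbp* therefore peak at opposite times of day. The retina has its own clock, which sets dopamine and melatonin rhythms, visual sensitivity, and the renewal of photoreceptor outer segments.

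In mm10, *Dbp* lies at chr7:45705088-45710203 on the + strand, *Arntl* at chr7:113207465-113314126 on the + strand, *Per2* at chr1:91415982-91459324 on the - strand, and *Per3* at chr4:151003652-151044665 on the - strand. *Per3* overlaps *Camta1* on the same strand, so some of its UMIs could not be assigned with certainty, while *Dbp* and *Nr1d1* overlap *Sphk2* and *Thra* on the other strand, which the 3′ kit tells apart. The members differed in the clock elements beside their starts. To show which inputs their promoters can carry, the promoters of RefSeq (GRCm38.p6, 250 bases before to 50 bases after a start) were searched on both strands for the E-box CACGTG, the E-box-like CACGTT, the D-boxes TTATGTAA and TTACGTAA, the RRE (AGGTCA after AANT), and the cAMP response element TGACGTCA, of which none contains another. A promoter was found for 9 of the 10 members, all but *Per2*. An E-box stood in a promoter of 4 of them (*Per1*, *Tef*, *Ciart*, and *Bhlhe41*), against 7.15% of all 32851 promoters. *Nr1d1* held an E-box-like sequence, which 4.68% of all promoters hold. The TTATGTAA D-box was present in 0.938% of all promoters and stood 2 times in that of *Per3*. An RRE, found in 0.219% of all promoters, stood in the second promoter of *Arntl*. *Dbp* and *Nr1d2* had none of these letters in their windows, as had TTACGTAA and TGACGTCA no match in any member. The promoters of *Per1* and *Ciart* are shown as E-box targets and that of *Per3* for its D-boxes, with 30 bases around the *Arntl* RRE, the site class through which NR1D1 acts. Capitals mark the matches.
Per1, 250 bases before the start, chr11:69098699-69098948, + strand: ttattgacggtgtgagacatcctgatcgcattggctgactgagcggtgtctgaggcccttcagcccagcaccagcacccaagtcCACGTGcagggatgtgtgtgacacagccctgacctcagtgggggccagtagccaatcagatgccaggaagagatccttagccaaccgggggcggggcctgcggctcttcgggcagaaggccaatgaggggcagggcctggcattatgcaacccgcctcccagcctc
Ciart, 250 bases before the start, chr3:95882229-95882478, - strand: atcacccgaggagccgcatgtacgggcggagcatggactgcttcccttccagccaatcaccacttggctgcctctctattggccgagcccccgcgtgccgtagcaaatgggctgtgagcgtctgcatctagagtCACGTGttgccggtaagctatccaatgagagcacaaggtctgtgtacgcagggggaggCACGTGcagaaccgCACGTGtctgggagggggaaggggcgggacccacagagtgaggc
Per3, 250 bases before the start, chr4:151044666-151044915, - strand: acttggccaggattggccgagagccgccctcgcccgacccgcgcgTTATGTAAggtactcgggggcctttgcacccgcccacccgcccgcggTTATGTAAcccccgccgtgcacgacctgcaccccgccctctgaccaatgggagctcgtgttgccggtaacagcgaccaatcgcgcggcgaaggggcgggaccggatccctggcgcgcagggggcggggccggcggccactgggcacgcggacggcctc
Arntl, 30 bases around the RRE of its second promoter, chr7:113207528-113207557, + strand: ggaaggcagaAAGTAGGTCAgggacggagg
The E-boxes of *Ciart* began 116, 58, and 44 bases before its start, and that of *Per1* 166 bases before. The D-boxes of *Per3* began 205 and 158 bases before its start, and the RRE of *Arntl* began 27 bases after the start. These matches describe letters and are not shown to be bound in these samples.

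The WT library held 12529 cells and 54524401 UMIs, and the mutant library 18395 cells and 62949610 UMIs, with a median of 1878 and 1416 UMIs per cell. A limit of 20% on mtDNA-encoded UMIs had removed 45.9% of WT and 17.3% of mutant barcodes. The libraries shared 59 barcodes, 0.471% of WT and 0.321% of mutant cells. The mutation is a single base, so the level of mt-Nd6 does not check the labels. Both libraries matched the male label, with 5 *Xist* UMIs in each and 4715 and 5011 *Ddx3y* UMIs. Cells were clustered without the genes described here, and clusters were named from markers. Classes with at least 20 cells in each library were rod-like (9698 WT and 13414 mutant cells), cone-like (615 and 1101), RPE-like, for the retinal pigment epithelium (326 and 960), bipolar-like (207 and 554), macrophage- or microglia-like (246 and 138), and Müller-like (45 and 96). Each class held its own markers at a summed level above that of the other classes together, and of these marker lists 1 gene was at 0, *Best1* in the RPE-like cells of both libraries. CPM (counts per 1000000) are UMIs of a gene scaled to the same total in each library and class. In a sum over cells, fewer cells of a class and less RNA per cell cannot be told apart.

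The clock genes were not spread evenly over the retina. *Dbp*, a D-box activator and the most direct output of the loop, was high in bipolar-like, RPE-like, and Müller-like cells and low in rods. Its level was 267 CPM in WT (411 UMIs) and 288 CPM in the mutant (1037 UMIs) in bipolar-like cells. In rod-like cells it was 17.2 CPM in WT (617 UMIs) and 32.2 CPM in the mutant (1165 UMIs), lowest of the 6 classes in each library, though in WT the interval (15.9 to 18.6 CPM) overlapped that of macrophage- or microglia-like cells (16.1 to 39.8 CPM). RPE-like cells held 193 CPM in WT (350 UMIs) and 184 CPM in the mutant (330 UMIs), and this level overlapped that of Müller-like cells within counting error in each library. *Tef*, the second D-box activator, was also lowest in rod-like cells, at 34.9 CPM in WT (1254 UMIs) and 50.7 CPM in the mutant (1834 UMIs). These intervals overlapped those of macrophage- or microglia-like cells in each library, and that of RPE-like cells in the mutant. *Tef* was highest in bipolar-like cells of WT (98.6 CPM) and in Müller-like cells of the mutant (169 CPM), with intervals of these 2 classes that overlapped in each library.

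*Arntl*, the activator, had another order. It was highest in cone-like cells, at 109 CPM in WT (1155 UMIs) and 87.6 CPM in the mutant (1323 UMIs), and lowest in the macrophage- or microglia-like cells, at 35.9 CPM in WT (29 UMIs) and 19.1 CPM in the mutant (6 UMIs). The top rank rests on a cone-like cluster of very deep cells, with 126 CPM in WT and 98.1 CPM in the mutant. The clusters led by *Opn1sw* and by *Gngt2*, the latter from few UMIs, held less than rod-like cells. They had 77.9 and 51.2 CPM in WT and 59.4 and 46.7 CPM in the mutant. Within rod-like cells of WT, *Arntl* went from 36.3 CPM up to 1000 UMIs per cell to 111 CPM above 4000. In the mutant these ranges had 54.9 and 91.4 CPM. Rod-like cells held 93.1 CPM in WT (3343 UMIs) and 76.0 CPM in the mutant (2749 UMIs), close to cone-like cells and above RPE-like cells, which held 38.5 CPM in WT (70 UMIs) and 34.1 CPM in the mutant (61 UMIs). Between neighbours in this order the WT intervals overlapped except from bipolar-like to RPE-like cells. The repressors of *Arntl* had an order of their own. *Nr1d1* was highest in bipolar-like cells, at 204 CPM in WT (314 UMIs) and 181 CPM in the mutant (653 UMIs), and *Nr1d2* was highest in bipolar-like cells of WT (193 CPM) and in Müller-like cells of the mutant (140.2 CPM). The *Nr1d1* intervals of bipolar-like and Müller-like cells overlapped in each library. Those of *Nr1d2* overlapped in the mutant, and in WT that of bipolar-like cells lay above every other class.

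Of the *Per* repressors, *Per3* was highest in Müller-like cells, at 131 CPM in WT (102 UMIs) and 248 CPM in the mutant (85 UMIs), and lowest in RPE-like cells of WT (20.4 CPM) and macrophage- or microglia-like cells of the mutant (28.6 CPM). Its WT interval in Müller-like cells (107 to 159 CPM) overlapped that of bipolar-like cells (108 to 143 CPM). The *Per3* intervals of RPE-like and macrophage- or microglia-like cells overlapped in each library. *Per1*, which also answers quickly to light and cAMP, ranged in WT from 21.1 CPM in rod-like to 63.2 CPM in macrophage- or microglia-like cells (51 UMIs). Of these, 41 UMIs were in the cluster of 48 cells led by *Ccl4*. In the mutant *Per1* ranged from 13.4 CPM in RPE-like (24 UMIs) to 49.6 CPM in Müller-like cells (17 UMIs). Macrophage- or microglia-like cells there had 31.8 CPM (10 UMIs). The highest and lowest classes overlapped their neighbours in each library. *Per2* was low in all classes and lowest in rod-like cells, at 0.334 CPM in WT (12 UMIs) and 1.96 CPM in the mutant (71 UMIs). In the mutant this interval overlapped that of RPE-like cells. *Ciart*, a repressor of ARNTL and CLOCK, stood out in Müller-like cells, the main glia of the retina, with 43.8 CPM in WT (34 UMIs) and 38.0 CPM in the mutant (13 UMIs), and reached no more than 17.2 CPM in any other class. In WT the interval of Müller-like cells (30.3 to 61.2 CPM) lay above that of every other class, and in the mutant it overlapped that of the macrophage- or microglia-like cells, in which *Ciart* had 2 UMIs, and that of bipolar-like cells. The Müller-like class is 1 cluster, of 45 WT and 96 mutant cells. In the unnamed cluster led by *Nefl*, *Glul*, and *Spc25*, 7 Müller markers were also raised. There *Ciart* had 4.77 CPM in WT (3 UMIs) and 6.10 CPM in the mutant (11 UMIs), and *Per3* 22.3 and 50.5 CPM. The high levels of *Ciart* and *Per3* thus belong to the named cluster. *Bhlhe41*, which competes for E-boxes, was the most even member, from 80.5 to 121 CPM in WT. The plot of levels by class shows these orders.

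**Figure D1:**
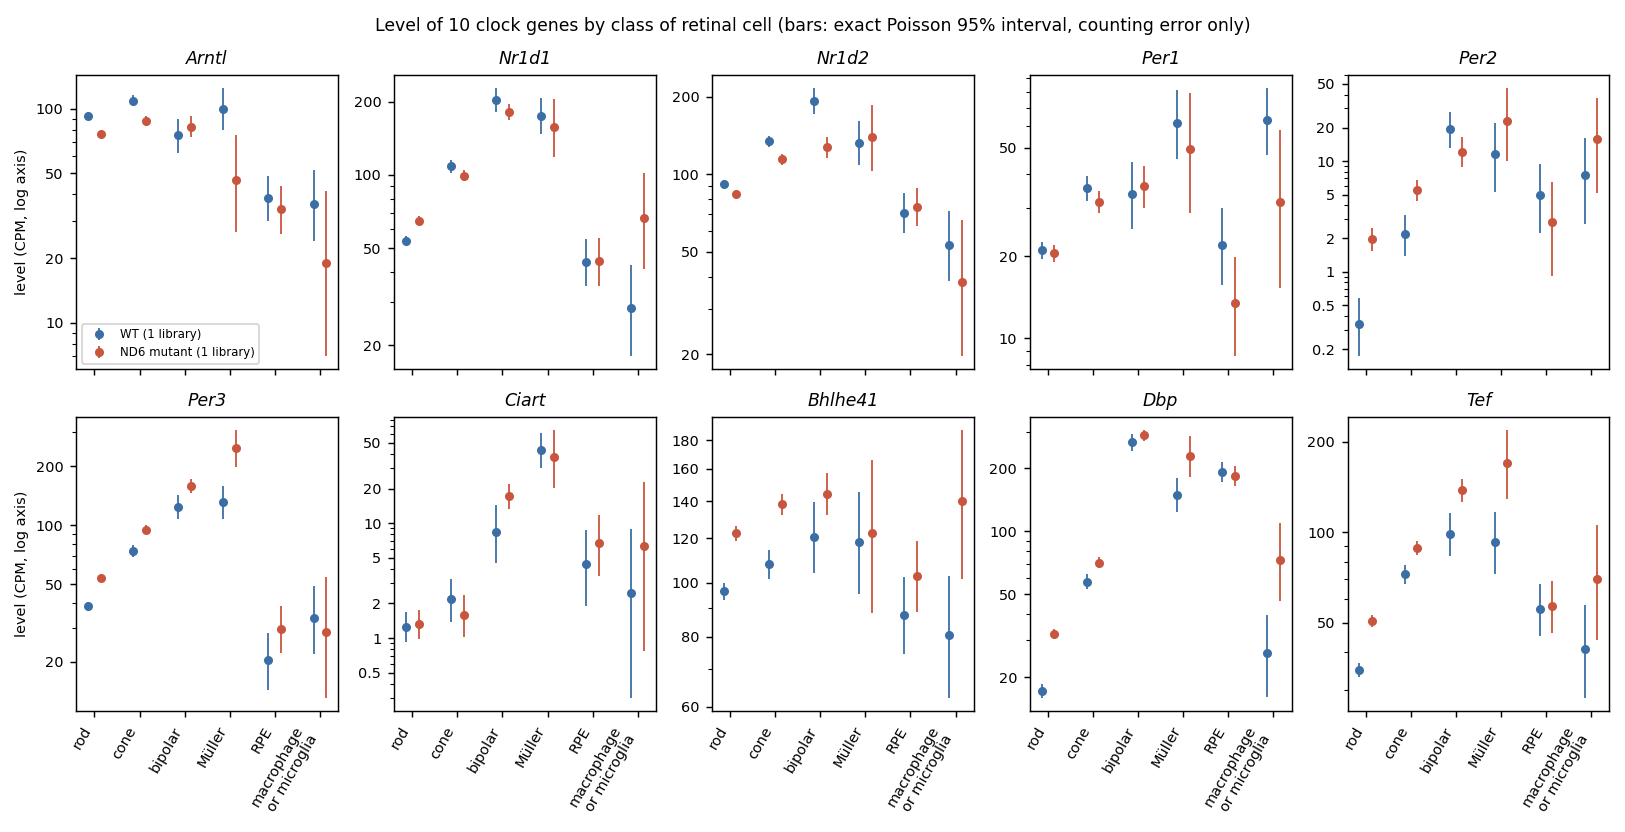
Level of each clock gene (CPM, log axis) in 6 classes of cell, for the WT library (blue) and the mutant library (red), with exact Poisson 95% intervals for counting error only. Dbp was lowest in rod-like cells (17.2 and 32.2 CPM) and highest in bipolar-like cells (267 and 288 CPM), and Ciart was highest in Müller-like cells (43.8 and 38.0 CPM).

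Between the libraries, the outputs *Dbp*, *Tef*, *Per2*, and *Per3* were higher in the mutant over all cells, and *Arntl* was lower. A change of at least 1.5-fold (0.585 on the log2 scale) was used as a rule of size. By this rule 2 of the 10 members (*Dbp* and *Per2*) were higher and 0 were lower, while of all 15888 genes 18.6% were higher and 7.0% lower. The count of members is therefore near the share of all genes. The count changed with the settings. With each cell weighted equally 5 members were higher by the fold, beside 28.5% of all genes. With cells of 1000 to 4000 UMIs only, 6 members were, beside 28.5%. The median of all genes was then 0.22 and 0.23, and that of the members 0.70 and 0.80. The median log2 ratio of mutant over WT CPM was 0.41 for the members, 7 of which were above 0 and 3 below, and 0.07 for all genes.

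*Dbp* had 43.6 CPM in WT (2375 UMIs) and 71.4 CPM in the mutant (4492 UMIs), a log2 ratio of 0.71 (0.64 to 0.78). *Tef* had 47.0 CPM in WT (2561 UMIs) and 69.8 CPM in the mutant (4396 UMIs), with 0.57 (0.50 to 0.64). Both activators of D-boxes were thus higher in the mutant library, *Tef* just within 1.5-fold. *Per3* had 47.9 CPM in WT (2612 UMIs) and 71.6 CPM in the mutant (4506 UMIs), a ratio of 0.58 (0.51 to 0.65), also just within it. *Per2* had 1.80 CPM in WT (98 UMIs) and 4.05 CPM in the mutant (255 UMIs), or 1.17 (0.83 to 1.52), the largest difference among the members and from few UMIs. *Per1* went with neither: it had 25.2 CPM in WT (1374 UMIs) and 24.3 CPM in the mutant (1529 UMIs), and its interval held 0 (-0.16 to 0.05).

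*Arntl* had 90.6 CPM in WT (4938 UMIs) and 75.6 CPM in the mutant (4756 UMIs), a log2 ratio of -0.26 (-0.32 to -0.20). It was lower than in WT, within 1.5-fold. Its repressor *Nr1d1* had 70.9 CPM in WT (3868 UMIs) and 83.7 CPM in the mutant (5270 UMIs), with 0.24 (0.18 to 0.30), while *Nr1d2* had 101 CPM in WT (5534 UMIs) and 93.9 CPM in the mutant (5909 UMIs), with -0.11 (-0.17 to -0.06). The 2 related repressors thus differed in direction. *Bhlhe41* had 97.2 CPM in WT (5298 UMIs) and 125 CPM in the mutant (7859 UMIs), with 0.36 (0.31 to 0.41), and *Ciart* had 2.51 CPM in WT (137 UMIs) and 3.43 CPM in the mutant (216 UMIs), with 0.45 (0.13 to 0.77). Both of these repressors were higher in the mutant library, within 1.5-fold.

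**Figure D2:**
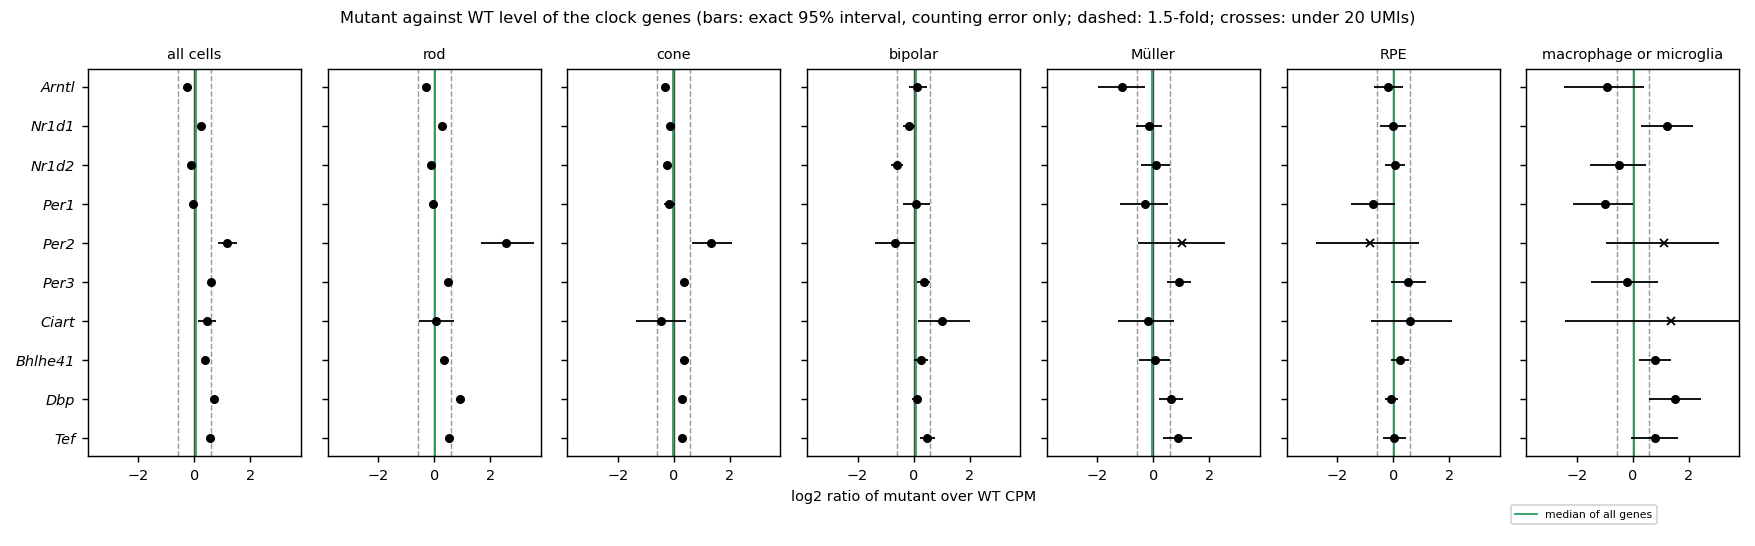
Log2 ratio of mutant over WT CPM of each clock gene over all cells and in 6 classes (1 library per group), with exact 95% intervals for counting error only. The green line is the median of all genes, dashed lines mark 1.5-fold, and crosses are genes under 20 UMIs in that class. Over all cells Per2 (1.17) and Dbp (0.71) lie beyond 1.5-fold, and Arntl (-0.26) lies below 0.

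In rod-like cells, the most numerous, the same 2 members passed 1.5-fold upward and 0 downward, beside 18.0% and 5.34% of all genes. Their median was 0.31 and that of all genes 0.03. *Dbp* went from 17.2 CPM to 32.2 CPM, a log2 ratio of 0.91 (0.76 to 1.05), and was higher in the mutant in 7 of 7 rod-like clusters (0.79 to 1.22). *Per2* had 12 UMIs in WT and 71 in the mutant, a ratio of 2.55 (1.66 to 3.57). *Arntl* was lower in the mutant, at -0.29 (-0.37 to -0.22), which lay outside its range over the clusters (-0.20 to 0.11). It was lower in 5 of 7 clusters only, with the whole interval below 0 in 2. The clusters differed in depth and in their share of each library, and the part of this in the value was not tested. *Nr1d2* was lower in 2 of 7. *Per3*, *Tef*, *Nr1d1*, and *Bhlhe41* were higher in 7 of 7 clusters, as was *Per1*, whose ratio over all rod-like cells was -0.04 (-0.19 to 0.11). For *Per1*, 0 of the 7 cluster intervals lay above 0, against 6 for *Per3* and 7 for *Tef*, *Nr1d1*, and *Bhlhe41*.

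RNA outside cells held clock transcripts too. Barcodes with 10 to 100 UMIs, taken as free RNA, held *Dbp* at 79.6 CPM in WT (18 UMIs) and 146 CPM in the mutant (57 UMIs). Both levels were above those of the rod-like cells. *Tef* in free RNA had 31.0 and 136 CPM (7 and 53 UMIs), *Per3* 26.5 and 59.1 CPM (6 and 23 UMIs), and *Per2* 0 and 5 UMIs. *Arntl* in free RNA had 66.3 and 46.2 CPM (15 and 18 UMIs), below its level in rod-like cells. The free RNA levels of these 5 genes, from few UMIs, differed in the same direction as those of the cells, and its part in the differences between cells was not tested.

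Cone-like cells held 1 member past 1.5-fold, *Per2*, beside 10.1% of all genes higher, and 0 lower, beside 5.66%. *Per2* had 2.18 CPM in WT (23 UMIs) and 5.50 CPM in the mutant (83 UMIs), with 1.33 (0.65 to 2.07). *Dbp*, with 57.3 CPM in WT (605 UMIs) and 70.6 CPM in the mutant (1065 UMIs), was higher by 0.30 (0.15 to 0.45), and *Arntl*, with 109 CPM in WT (1155 UMIs) and 87.6 CPM in the mutant (1323 UMIs), differed by -0.32 (-0.44 to -0.21). *Nr1d1* was -0.13 (-0.24 to -0.02) in these cells, the other direction than in rod-like cells. A cone-like cluster of very deep cells (152 WT cells with a median of 39112 UMIs and 390 mutant cells with one of 24610 UMIs) gave most of the UMIs, and within it *Dbp* had 28.7 CPM in WT (200 UMIs) and 48.1 CPM in the mutant (536 UMIs), with 0.74 (0.50 to 0.98), more than over the class. In the cone-like cluster led by *Opn1sw* and *Pde6h*, *Dbp* had 114 CPM in WT (392 UMIs) and 136 CPM in the mutant (480 UMIs), with 0.25 (0.06 to 0.45), and in the cluster led by *Gngt2* 0.54 (-0.37 to 1.54). *Dbp* was thus higher in the mutant in 3 of 3 cone-like clusters, and *Arntl* lower in 3 of 3. Without the deep cluster *Dbp* was 0.25 and *Arntl* -0.40. The deep cluster, led by *Pde6c* and *Adrb1*, was named cone-like here, as was a similar one with no mtDNA limit. With genes scaled over both libraries together and at resolution 2, the deep clusters led by the same genes were left unnamed.

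Bipolar-like cells, the interneurons that receive from photoreceptors, gave another picture. Of the members 1 was higher by the fold (*Ciart*), beside 14.5% of all genes, and 2 were lower (*Per2* and *Nr1d2*), beside 5.21%. *Dbp* was at 267 CPM in WT and 288 CPM in the mutant, and its interval held 0 (0.11, -0.06 to 0.28). *Nr1d2* had 193 CPM in WT (298 UMIs) and 127 CPM in the mutant (459 UMIs), with -0.60 (-0.81 to -0.39), and *Per2* had 19.5 CPM in WT (30 UMIs) and 12.2 CPM in the mutant (44 UMIs), with -0.67 (-1.37 to 0.05). *Ciart* had 8.43 CPM in WT (13 UMIs) and 17.2 CPM in the mutant (62 UMIs), with 1.03 (0.15 to 2.02). The make-up of the class differed between the libraries: the cluster led by *Slit2*, *Cck*, and *Vsx1* held 61 of 207 WT cells and 313 of 554 mutant cells. In that cluster *Dbp* had 179.8 CPM in WT (129 UMIs) and 261 CPM in the mutant (617 UMIs), with 0.54 (0.26 to 0.82). In the cluster led by *Trpm1* and *Pcp2*, *Dbp* had 403 CPM in WT (193 UMIs) and 385 CPM in the mutant (154 UMIs), with -0.06 (-0.38 to 0.25). *Nr1d2* in the latter had 246 CPM in WT (118 UMIs) and 108 CPM in the mutant (43 UMIs), with -1.20 (-1.73 to -0.68), and was lower in the mutant in 3 of 3 bipolar-like clusters with at least 20 cells in each library.

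The RPE lies outside the neural retina and takes up shed outer segments in a daily rhythm. Its class had 1 member higher by the fold (*Ciart*, 8 and 12 UMIs), beside 10.8% of all genes, and 1 lower (*Per1*, 40 and 24 UMIs), beside 10.3%, each with an interval that held 0. *Dbp* had 193 CPM in WT (350 UMIs) and 184 CPM in the mutant (330 UMIs), with -0.06 (-0.28 to 0.16). Different clusters held most of this class in the libraries: 640 of the 960 mutant cells but 59 of the 326 WT cells were in the cluster led by *Serpine3* and *Rgr*, and 170 WT cells were in the cluster led by *Cox8b* and *Dct*. *Dbp* was higher in the mutant in 3 of 3 RPE-like clusters, though not over the class. It had 272 CPM in WT (325 UMIs) and 329 CPM in the mutant (129 UMIs) in the *Cox8b* cluster, with 0.27 (-0.03 to 0.57), and 24.3 CPM in WT (13 UMIs) and 71.6 CPM in the mutant (47 UMIs) in the cluster led by *Enpp2*, with 1.56 (0.65 to 2.57).

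Müller-like cells were few and unequal in depth, with a median of 8819 UMIs in the 45 WT cells and 1611 UMIs in the 96 mutant cells, and the part of this in the differences was not tested. Of 9 members with enough UMIs, 3 were higher by the fold (*Per3*, *Tef*, and *Dbp*), beside 13.4% of all genes, and 1 was lower (*Arntl*), beside 17.6%. *Per3* had 131 CPM in WT (102 UMIs) and 248 CPM in the mutant (85 UMIs), with 0.92 (0.49 to 1.35). *Tef* had 92.7 CPM in WT (72 UMIs) and 169 CPM in the mutant (58 UMIs), with 0.87 (0.34 to 1.39). *Arntl* had 100.4 CPM in WT (78 UMIs) and 46.7 CPM in the mutant (16 UMIs), with -1.10 (-1.98 to -0.32), but 0.16 when each cell had the same weight. *Per3* and *Dbp* were within 1.5-fold under both other clusterings of the cells: *Per3* was 0.30 with genes scaled over both libraries together and 0.14 at resolution 2, and *Dbp*, 0.63 as first clustered, was 0.03 and 0.27. *Tef* was 0.55 and 0.61. In the macrophage- or microglia-like cells, 8 members had at least 20 UMIs, of which 4 were higher by the fold (*Dbp*, *Tef*, *Nr1d1*, and *Bhlhe41*), beside 16.4%, and 2 were lower (*Per1* and *Arntl*), beside 16.2%. *Dbp* there had 26.0 CPM in WT (21 UMIs) and 73.1 CPM in the mutant (23 UMIs), with 1.49 (0.57 to 2.42), levels below those of free RNA in both libraries.

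The ratio of *Dbp* to *Arntl* UMIs within a library needs no scaling between libraries, and sets an output against its activator. Over all cells it was 0.481 in WT and 0.944 in the mutant, a log2 difference of 0.97 (0.88 to 1.07). Rod-like cells had 0.185 in WT and 0.424 in the mutant, with 1.20 (1.04 to 1.36), and cone-like cells 0.524 in WT and 0.805 in the mutant, with 0.62 (0.44 to 0.80). In these photoreceptors the mutant library was the higher by more than counting error. The log2 ratio of *Arntl* over all rod-like cells, which enters their value, lay below that of every rod-like cluster. Bipolar-like cells had 3.54 in WT and 3.48 in the mutant, with -0.03 (-0.38 to 0.32), and RPE-like cells 5.0 in WT and 5.41 in the mutant, with 0.11 (-0.43 to 0.65). In these 2 classes the intervals held 0, but the make-up of both differed between the libraries. In the RPE-like cluster led by *Enpp2*, *Dbp* and *Arntl* had 13 and 56 UMIs in WT and 47 and 36 in the mutant. In the bipolar-like cluster led by *Slit2* they had 129 and 69 UMIs in WT and 617 and 208 in the mutant. The ratio was higher in the mutant in every RPE-like cluster, but outside the *Enpp2* cluster it rests on very few *Arntl* UMIs. In the *Serpine3* cluster *Dbp* and *Arntl* had 12 and 2 UMIs in WT and 154 and 23 in the mutant. In the *Cox8b* cluster they had 325 and 12 UMIs in WT and 129 and 2 in the mutant. In bipolar-like clusters the ratio went both ways. Müller-like cells had 1.49 in WT and 4.94 in the mutant, with 1.73 (0.85 to 2.61), and macrophage- or microglia-like cells 0.724 in WT and 3.83 in the mutant, with 2.40 (0.88 to 3.93). These 2 rest on 16 and 6 *Arntl* UMIs of the mutant library.

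**Figure D3:**
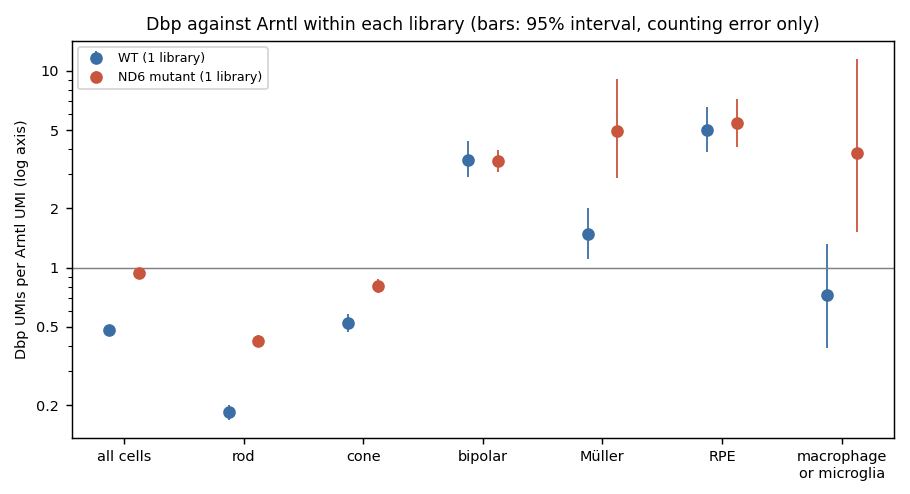
UMIs of Dbp per UMI of Arntl (log axis) in the WT library (blue) and the mutant library (red), over all cells and in 6 classes, with 95% intervals for counting error only. The mutant library is higher over all cells (0.481 and 0.944) and in rod-like cells (0.185 and 0.424), and the 2 libraries overlap in bipolar-like and RPE-like cells.

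Other pairs moved by different amounts. The log2 difference against *Arntl* over all cells was 1.43 (1.09 to 1.77) for *Per2*, 0.84 (0.75 to 0.93) for *Per3*, 0.83 (0.74 to 0.92) for *Tef*, and 0.50 (0.42 to 0.58) for *Nr1d1*. All 4 were above 0, as for *Dbp*. *Nr1d1* against *Dbp*, 2 E-box targets of which *Nr1d1* is known to peak the earlier, was 1.63 in WT and 1.17 in the mutant, with -0.47 (-0.57 to -0.38). *Per1* against *Per2* was 14.0 in WT and 6.00 in the mutant, with -1.23 (-1.58 to -0.87), so the related *Per* genes did not keep their proportion.

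Depth of the cells moved with these ratios. Rod-like cells had a median of 1829 UMIs in WT and 1360 in the mutant, and *Malat1*, an RNA kept in the nucleus, took 3.34% and 2.76% of their UMIs. Within 4 ranges of UMIs per cell, the log2 ratio of *Dbp* was 1.12 up to 1000 UMIs, 1.11 up to 2000, 0.75 up to 4000, and 0.78 above 4000. *Per3*, *Tef*, *Nr1d1*, and *Bhlhe41* were also higher in the mutant in 4 of 4 ranges. *Arntl* was 0.60, -0.04, -0.12, and -0.28 in the same ranges, and so above 0 in the cells of lowest depth. The median of all genes went from 0.28 in the lowest range to -0.02 in the highest. Within 3 ranges of the *Malat1* share (up to 1%, up to 3%, and above), *Dbp* was 0.95, 0.74, and 0.95, and *Arntl* 0.09, -0.23, and -0.18. These ranges were set after the data had been seen.

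**Figure D4:**
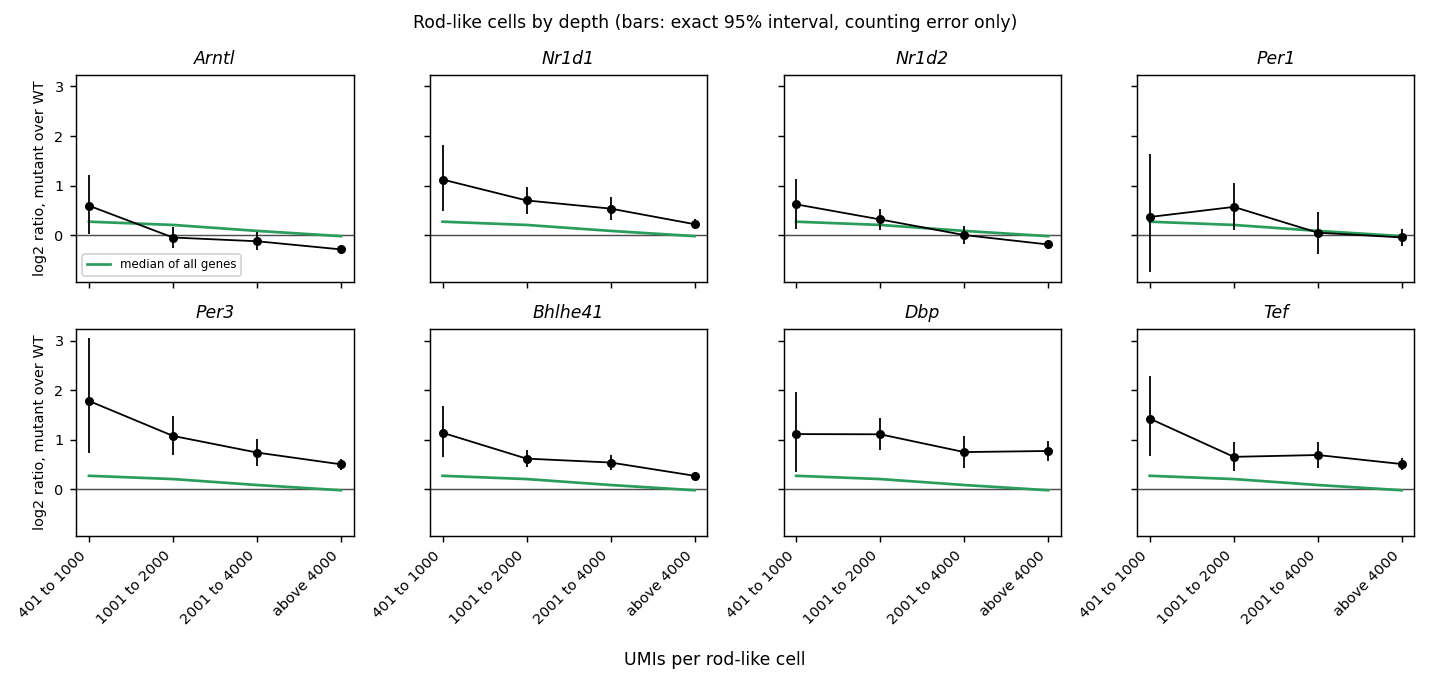
Log2 ratio of mutant over WT CPM in rod-like cells of 4 ranges of UMIs per cell, for 8 clock genes, with exact 95% intervals for counting error only; the green line is the median of all genes in the range. Dbp stays above 0 in each range (0.78 above 4000 UMIs), and Arntl goes from 0.60 to -0.28.

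Other genes of the loop showed the same split between the arms in part. Of genes known to be driven through RREs in the phase of *Arntl*, some were lower and others not. *Cry1* was lower, with 51.9 CPM in WT (2828 UMIs) and 39.4 CPM in the mutant (2479 UMIs) and -0.40 (-0.48 to -0.32), as was *Nfil3*, the repressor at D-boxes, with 12.8 CPM in WT (698 UMIs) and 8.53 CPM in the mutant (537 UMIs) and -0.59 (-0.75 to -0.42). Both were below 0 in rod-like, cone-like, and bipolar-like cells. *Clock*, the partner of *Arntl*, had 108 CPM in WT (5873 UMIs) and 114 CPM in the mutant (7185 UMIs), with 0.08 (0.03 to 0.13), and *Npas2*, which can stand in for it, had 11 UMIs in WT and 20 in the mutant, with 0.66 (-0.48 to 1.86). These 2 genes of the same phase were thus not lower over all cells. Among genes of the opposite phase, *Cry2* had 19.5 CPM in WT (1062 UMIs) and 29.6 CPM in the mutant (1864 UMIs), with 0.60 (0.49 to 0.71), and *Hlf*, the third PAR bZIP factor, had 66.0 CPM in WT (3599 UMIs) and 85.6 CPM in the mutant (5391 UMIs), with 0.38 (0.31 to 0.44). Both were higher in the mutant library over all cells, *Hlf* not in cone-like (-0.12) or bipolar-like cells (-0.24). *Rorb*, an activator at RREs, differed most among the other activators, with 279 CPM in WT (15188 UMIs) and 593 CPM in the mutant (37315 UMIs) and 1.09 (1.06 to 1.12).

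By list, 1 of 4 other repressors was higher and 1 lower by the fold, beside 18.6% and 7.0% of all genes, with a median of -0.11, beside 0.07. The same shares of all genes stand beside the counts of the lists that follow. Of 5 other activators, 2 were higher (*Rorb* and *Npas2*) and 0 lower. Of 10 genes for kinases and turnover, 2 were higher (*Csnk1e*, 0.72, and *Timeless*, 1.06), near the 18.6% of all genes, and 0 lower, with a median of -0.02. *Csnk1e* and *Csnk1d*, the kinases that mark PER proteins for decay, went apart, *Csnk1d* having -0.43 (-0.51 to -0.35). Of 6 retinal outputs and light sensors with enough UMIs, 2 passed the fold upward and 0 downward, and their median was 0.21. *Drd4*, the photoreceptor dopamine receptor whose transcript is known to rise at night, had 325 CPM in WT (17726 UMIs) and 507 CPM in the mutant (31901 UMIs), with 0.64 (0.61 to 0.67).

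Immediate early genes, which answer to stimuli, differed more than the clock genes. Of 12 immediate early genes, 10 were lower in the mutant by the fold, beside 7.0% of all genes, and 0 higher, beside 18.6%, with a median of -1.10. *Fos* had 395 CPM in WT (21549 UMIs) and 97.2 CPM in the mutant (6119 UMIs), with -2.02 (-2.06 to -1.98), and *Egr1* had 337 CPM in WT (18374 UMIs) and 64.0 CPM in the mutant (4031 UMIs), with -2.40 (-2.45 to -2.35). Such genes are known to respond to light, to cAMP, and to dissociation of tissue, and *Per1* can respond with them, so their level stands beside that of *Per1* in the same cells, and its part in the *Per1* value was not tested. Of 6 genes that respond to glucocorticoid, which also act on *Per1*, 0 passed the fold, with a median of -0.20. The plot of the lists gives each gene.

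**Figure D5:**
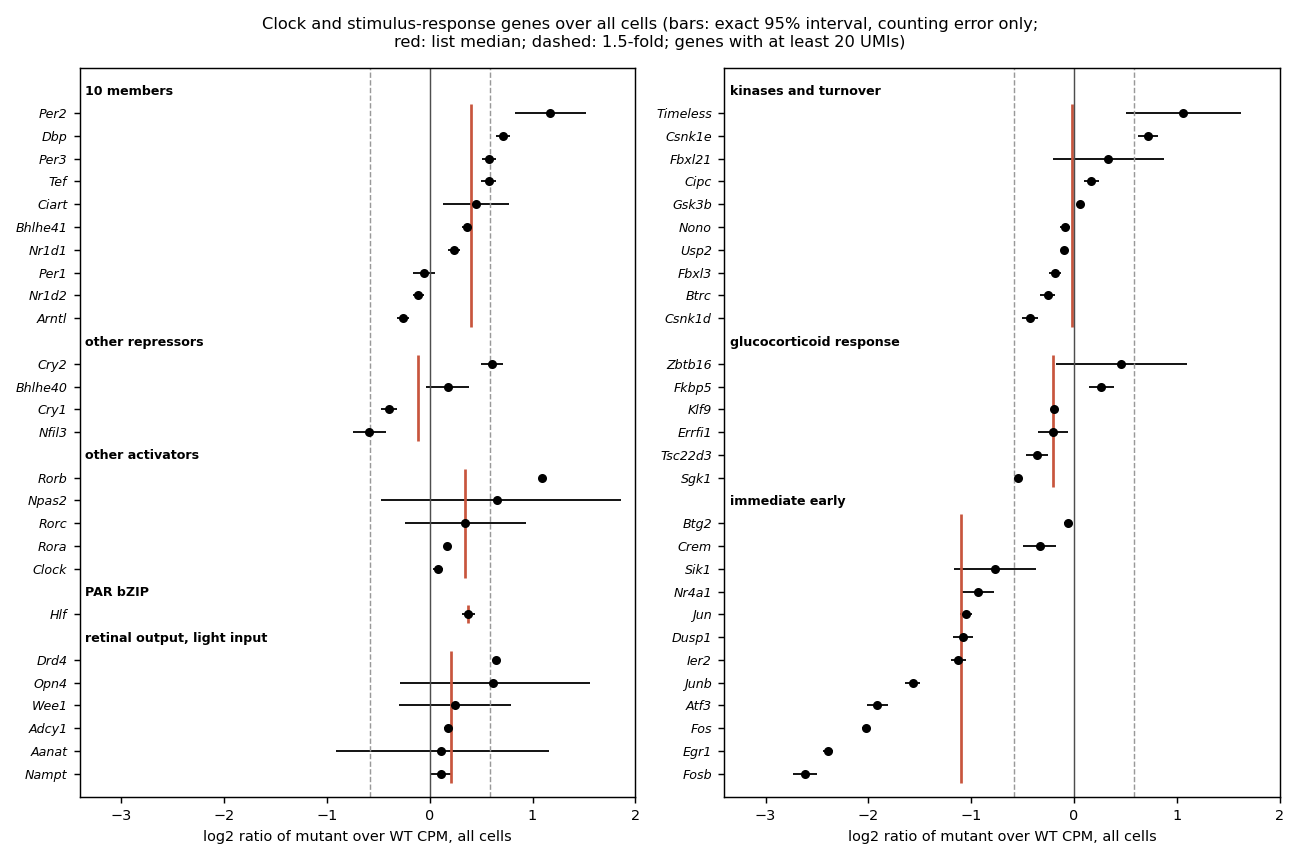
Log2 ratio of mutant over WT CPM over all cells for the members, the other genes of the clock, the retinal outputs, and the genes that respond to glucocorticoid or are immediate early, with exact 95% intervals for counting error only (1 library per group). Red lines are list medians (0.41 for the members and -1.10 for the immediate early genes), and dashed lines mark 1.5-fold.

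Read for phase, the members did not move as 1 block. Over all cells, in rod-like cells, and in cone-like cells, *Dbp*, *Tef*, *Per2*, *Per3*, and *Cry2* were higher in the mutant, and *Arntl*, *Cry1*, and *Nfil3* lower. Of other genes in the phase of *Dbp*, *Nr1d1* (-0.13), *Ciart* (-0.46, interval holding 0), and *Hlf* (-0.12, interval holding 0) were below 0 in cone-like cells. *Per1* and *Nr1d2* were near 0 or below it over all rod-like and cone-like cells, although within rod-like clusters *Per1* was above 0 in 7 of 7 and *Nr1d2* in 5 of 7. The whole interval lay above 0 in 0 of these clusters for *Per1* and in 2 for *Nr1d2*, and below 0 in 1 for *Nr1d2*. Of the genes in the phase of *Arntl*, *Clock* was -0.01 in rod-like and 0.01 in cone-like cells. For *Dbp* against *Arntl*, the interval over bipolar-like and over RPE-like cells held 0, but the make-up of both classes differed between the libraries. Over all cells *Dbp*, *Per2*, *Cry2*, and *Nfil3* passed 1.5-fold, and *Tef*, *Per3*, *Arntl*, and *Cry1* did not. A difference in clock phase between the libraries was not established from 1 library each, and genotype, hour of dissection, and the mice and preparation behind each library cannot be told apart.

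Over the 6 classes of both libraries (12 points), the genes whose pattern of log2(CPM + 1) was most like that of *Dbp* among 10217 genes were *Hid1*, *Abhd14b*, *Cenpv*, *Ube2e2*, and *Mapk8ip1*, with a Pearson r from 0.95 to 0.97. Those most like *Per1* were *Pdcd6ip*, *Map4k4*, *Ptbp1*, *Sertad2*, and *Dst* (0.91 to 0.96), and those most like *Arntl* were *Ranbp6*, *Ctcf*, *Rbm15*, *Spryd7*, and *Glcci1* (from 0.977 to 0.985). No clock gene was among them. The points share libraries, free RNA, and depth, so these values describe the 2 libraries only. Among the members themselves, *Nr1d1* and *Per3* were the most alike over the classes (r = 0.90), and *Arntl* and *Dbp* were not alike (r = -0.09).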

How the data were processed

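Single cells of whole retina from 1 WT and 1 mutant library were profiled with the 10x Genomics 3′ kit, which marks strand. The authors deposited unfiltered counts of UMIs per gene and barcode, made with Cell Ranger 3.0.2 on mm10 per the submitters' processing notes; no other values were used. The regression and integration of the study were not repeated. Cells were barcodes that reached 401 UMIs and 201 genes with mtDNA-encoded UMIs no higher than 20% (Python 3.11.15, scipy 1.17.1, pandas 2.3.3, numpy 2.4.6). No doublet call was run, so doublets stayed in. Cells were clustered with scanpy 1.11.5 and leidenalg 0.10.2 on 3000 variable genes, scaled within each library, with 30 principal components, 20 neighbours, and resolution 1, leaving out the clock, stimulus, and mtDNA-encoded genes. A cluster was named when at least 3 markers of a type were raised at least 2-fold and further conditions held. That type alone had to have the most markers among the 10 genes most raised in the cluster. If it had only 1 there, it also needed the most raised markers. If no marker was there, it had to be the only type with 3 raised markers. Rod-like clusters could also be named against the other named clusters, without cones and red blood cells. Clusters could thus stay unnamed with 3 or more markers raised. This naming rule was settled after clusters had been seen, and differences from the study may come from rebuilt names.

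UMIs were summed per library and class and given as CPM with exact Poisson 95% intervals, and the log2 ratio of mutant over WT with an exact conditional interval, which was tested on simulated data. Differences between ratios of 2 genes have a normal interval on the log scale. All cover counting error only. With 1 library per group no test between groups was possible, and a gene was counted as higher or lower when its ratio reached 1.5-fold with at least 20 UMIs over both libraries. The named genes were the 10 members, fixed lists of other genes of the clock, retinal outputs, genes that respond to glucocorticoid, and immediate early genes, and the 5 genes most like *Dbp*, *Per1*, and *Arntl* among genes with at least 500 UMIs. Members and lists were chosen with earlier results of these data known. Alternatives changed the mtDNA limit, weight of cells, scaling, total of UMIs, depth of cells, fold, filter on low counts, and clustering. Promoters were from RefSeq (GRCm38.p6) and positions from GENCODE vM21.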

Additional observations from a re-analysis of the deposited data

Results flagged for a closer look

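Barcodes with more than 20% mtDNA-encoded UMIs, 10647 in WT and 3861 in the mutant, entered no comparison above. They held several clock transcripts, though not all, at a clearly higher level in the mutant than in the WT library. These values were singled out because the signal lies outside the cells compared and above the level of the WT control. *Dbp* had 39.0 CPM in WT and 112 CPM in the mutant, a log2 ratio of 1.52. The ratio was 1.504 for *Per3*, 1.40 for *Tef*, 1.01 for *Nr1d1*, and 0.76 for *Per1*. For *Ciart* it was 1.72 (0.81 to 2.66), from 20 and 24 UMIs. The median of all genes in these barcodes was 0.35, and *Nr1d2* (0.50) and *Bhlhe41* (0.49) were nearer to it. *Per2* had 0.96, with an interval that held 0 (-0.24 to 2.11). *Arntl* had 37.1 and 31.4 CPM there (-0.24). *Dbp*, *Per3*, *Tef*, and *Nr1d1* were higher in the mutant on both sides of the limit.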

How the results depend on the processing

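No paired analysis was possible because the groups share only 1 replicate number, and no library could be left out with 1 per group. The number of members higher by 1.5-fold over all cells, 2, became 1 at 2-fold (beside 8.81% of all genes), 5 with no mtDNA limit (22.8%), 5 with cells weighted equally (28.5%), and 6 with cells of 1000 to 4000 UMIs (28.5%). In rod-like cells the number, also 2, became 1 at 2-fold (beside 10.3%), 1 with a minimum of 100 UMIs (10.1%), 4 with no mtDNA limit (19.7%), 4 with cells weighted equally (22.4%), and 4 with cells of 1000 to 4000 UMIs (19.2%). The number lower by the fold was 0 in every alternative for both. The log2 difference of *Dbp* minus *Arntl* over all cells, 0.97, became 1.14 with cells weighted equally and 1.40 with cells of 1000 to 4000 UMIs. The cause of these changes was not tested. Among members past 1.5-fold, 1 value changed sign, that of *Arntl* in Müller-like cells, 0.16 with cells weighted equally against -1.10. Values within 1.5-fold changed sign too, among them *Arntl* in rod-like cells of up to 1000 UMIs (0.60), and, with cells weighted equally, *Ciart* in cone-like (0.81) and *Per1* and *Bhlhe41* in Müller-like cells (0.64 and -0.68). *Dbp*, *Per2*, *Per3*, *Tef*, *Nr1d1*, and *Bhlhe41* were above 0 in every alternative for all cells and rod-like cells, and *Arntl* was below 0 in 7 of 7 alternatives for all cells and 13 of 15 for rod-like cells. *Per1* and *Nr1d2* changed sign over all cells with several settings. They were 0.33 and 0.14 with cells of 1000 to 4000 UMIs, 0.21 and 0.11 with cells weighted equally, and 0.10 and 0.02 with no mtDNA limit. Splits of rod-like cells by depth or *Malat1* share, the barcodes above the mtDNA limit, and leaving out single clusters of cone-like or RPE-like cells were chosen after the data had been seen. *Per2* and *Ciart* in the smaller classes rest on few UMIs.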

Other observations

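Clusters left unnamed by the naming rule also held clock genes. The cluster led by *Grik1*, *Gsg1*, and *Slitrk6* (26 WT and 79 mutant cells) had *Dbp* at 376 CPM in WT (45 UMIs) and 505 CPM in the mutant (172 UMIs), the highest level of any cluster in the mutant library, with a log2 ratio of 0.43 (-0.05 to 0.93). *Arntl* in it had 6 and 16 UMIs. The cluster led by *Cartpt*, *Nhlh2*, and *Snhg11* (67 and 267 cells) had *Dbp* at 169 CPM in WT (105 UMIs) and 179 CPM in the mutant (286 UMIs), with 0.08 (-0.25 to 0.41), and *Per3* at 64.6 CPM in WT (40 UMIs) and 124 CPM in the mutant (198 UMIs), with 0.94 (0.44 to 1.47). In both clusters the interval of *Dbp* held 0. In 2 larger unnamed clusters it did not: *Dbp* had 20.4 CPM in WT (24 UMIs) and 62.4 CPM in the mutant (38 UMIs) in the cluster led by *Bc1*, *Nefl*, and *Sncg* (775 and 487 cells), with 1.61 (0.83 to 2.41), and 62.0 CPM in WT (39 UMIs) and 95.4 CPM in the mutant (172 UMIs) in that led by *Nefl*, *Glul*, and *Spc25* (240 and 613 cells), with 0.62 (0.11 to 1.16). In the other unnamed clusters, led by *Hbb-bs* and by *Nefl* and *Nrsn1*, *Dbp* was 1.11 (-0.16 to 2.66) and -0.07 (-1.22 to 1.26).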
